A study of Mus musculus with 4 samples.

Results

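The genes described here make, assemble and carry secretory immunoglobulin A (IgA) in 2 salivary glands of the mouse, the submandibular (SMG) and the sublingual (SLG). They are the 6 rows of the count matrix with the symbols *Pigr*, *Jchain*, *Igha*, *Ighm*, *Igkc* and *Mzb1*, out of 32285 genes listed, and all 6 had at least 1 UMI. Their rows were taken by symbol, and the 6 genes were chosen with earlier results of these data known. A UMI (unique molecular identifier) is a tag on 1 captured RNA molecule, so the counts are numbers of molecules. Single-cell suspensions of both glands were taken from wild-type female C57BL/6N mice aged 6–8 weeks, in an untreated state that the labels call physiological status. The labels name 2 mice and 4 samples, whereas the study's methods name 3 mice. All 15707 cells of the deposited matrix carry 1 barcode suffix, so the sample, animal and gland of a cell are not known. The matrix was therefore read as 1 sample, no test was run, and the intervals given are exact 95% intervals that cover counting error only.

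IgA is secreted by plasma cells that lie beside the glandular epithelium. In these cells the alpha heavy chain (*Igha*) pairs with a light chain, mostly kappa (*Igkc*), and the joining chain (*Jchain*) links IgA monomers into dimers. *Mzb1* encodes a chaperone of the endoplasmic reticulum that helps plasma cells to assemble antibody, and *Ighm* encodes the mu heavy chain of IgM, which comes before class switching. The polymeric immunoglobulin receptor (*Pigr*) is made by the epithelium, binds joining-chain-containing IgA or IgM at the basolateral membrane, carries it across the cell and is cut at the apical side to release secretory IgA into saliva. The question put to the matrix was which cells held the production genes and which held the receptor.

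On GRCm38, in the GENCODE M21 annotation, *Pigr* lies at chr1:130826684-130852249 on the plus strand and *Jchain* at chr5:88519809-88527891 on the minus strand. The constant genes *Igha* (chr12:113254830-113260236) and *Ighm* (chr12:113418558-113422730) lie on the minus strand, and *Igkc* (chr6:70726435-70726966) lies on the plus strand. An antibody-secreting cell joins 1 heavy and 1 light variable gene to these constant genes. The variable genes with UMIs therefore show whether cells share germline genes, but not whether they share a receptor. The 4 germline heavy and kappa variable genes that recurred between cells are shown as the last 60 coding bases before the join, with the last in-frame cysteine codon, which opens the third complementarity-determining region, in capitals.
Ighv1-81: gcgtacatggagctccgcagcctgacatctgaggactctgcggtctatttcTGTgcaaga
Ighv5-17: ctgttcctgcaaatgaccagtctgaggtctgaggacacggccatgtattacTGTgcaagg
Igkv1-117: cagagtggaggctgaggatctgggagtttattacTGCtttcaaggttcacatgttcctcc
Igkv6-17: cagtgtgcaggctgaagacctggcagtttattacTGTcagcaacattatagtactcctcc
These stretches lie at chr12:115920279-115920338, chr12:113859149-113859208, chr6:68121768-68121827 and chr6:70371934-70371993, in the same order, within the coding sequence. The pair of heavy-chain stretches was identical at 40 of 60 bases and the pair of kappa stretches at 43 of 60. No run of 90 bases in the *Ighv1-81* or *Ighv5-17* transcript occurred in another immunoglobulin gene of the annotation, whereas 69 of 315 such runs in *Igkv1-117* and 63 of 288 in *Igkv6-17* did. The read length is not given in the sources used here, so the kappa names are less certain than the heavy ones.

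Cell classes were rebuilt, since the cells carry no deposited annotation in the files used here. The cells were clustered without the 6 genes and without the other immunoglobulin genes, which gave 23 clusters, of which 17 were named from marker genes. Classes are called serous acinar-like (4597 cells), mucinous acinar-like (357), Dcpp-rich acinar-like (3417), ductal epithelial-like (2963), basal or myoepithelial-like (178), T-like (97), NK or ILC-like (natural killer or innate lymphoid; 1041), myeloid-like (1062), vascular-like (710) and mesenchymal-like (368). The other 917 cells, in 6 clusters, stayed unnamed. Levels below are UMIs of a gene summed over a class per 10000 UMIs of that class. Depth ran from 1374 to 141509 UMIs per cell, with a median of 2608. Secretory acinar RNA was present in every class, and 1070 of every 10000 UMIs in NK or ILC-like cells were of *Mucl2*, a mucin-like secretory gene that serous acinar-like cells held at 5858. A low level of an acinar gene in another class was therefore read against that background.

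Immunoglobulin RNA was concentrated in very few cells. A cell was called Ig-producing when at least 1% of its UMIs, and at least 10 UMIs, were on the 12 immunoglobulin constant genes, and 5 of 15707 cells met this rule. In these 5 cells the constant genes took 66.2%, 65.6%, 56.4%, 54.9% and 36.0% of 11927, 6518, 10592, 9977 and 9923 UMIs. The next cells below the rule had 0.616% (11 UMIs) and 0.608% (23 UMIs), so a wide gap separated the 5 from all others. No cluster of plasma cells or of B cells formed. Of the 5, Ig-producing cells 1, 2 and 4 fell in the T-like cluster 18, cell 3 in the myeloid-like cluster 5 and cell 5 in the serous acinar-like cluster 1.

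*Igha* was the heavy chain of all 5 cells. It had 1442, 852, 885, 1183 and 1192 UMIs in cells 1 to 5, whereas *Ighm* and *Ighd* had 0 UMIs in each. *Igha* made up 99.96% of heavy-chain constant UMIs, the others being 2 UMIs of *Ighg2b* in cell 3. *Igkc* had 6410, 3418, 5069, 4273 and 2337 UMIs in the same cells. The rule that chose the cells used these constant genes, so their counts are a description. The 5 cells held 96.1% of the 5782 *Igha* UMIs in the matrix (95.5 to 96.5) and 98.3% of the 21877 *Igkc* UMIs.

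*Jchain* and *Mzb1* were not used to choose the cells. *Jchain* had 592, 323, 438, 374 and 307 UMIs in cells 1 to 5, and at most 1 UMI in any of the other 15702 cells. The 5 cells held 2034 of its 2065 UMIs (98.5%), and its level was 416 per 10000 against 0.00248 in all other cells, a log2 ratio of 17.36 (16.85 to 17.92). *Mzb1* had 6, 2, 9, 16 and 4 UMIs in the 5 cells and 9 UMIs in 8 others. Its log2 ratio was 13.36 (12.28 to 14.60), and the 5 cells held 37 of its 46 UMIs. Every Ig-producing cell was thus above every other cell for *Jchain*, and all 5 had *Mzb1*. *Pigr*, by contrast, had 0 UMIs in each of the 5 cells, which allows a level of up to 0.754 per 10000, against 1.01 over all other cells. That bound is above the levels of several classes, from 0.543 in mesenchymal-like to 0.125 in myeloid-like cells. The 0 counts therefore do not set the 5 cells apart from those classes.

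**Figure D1:**
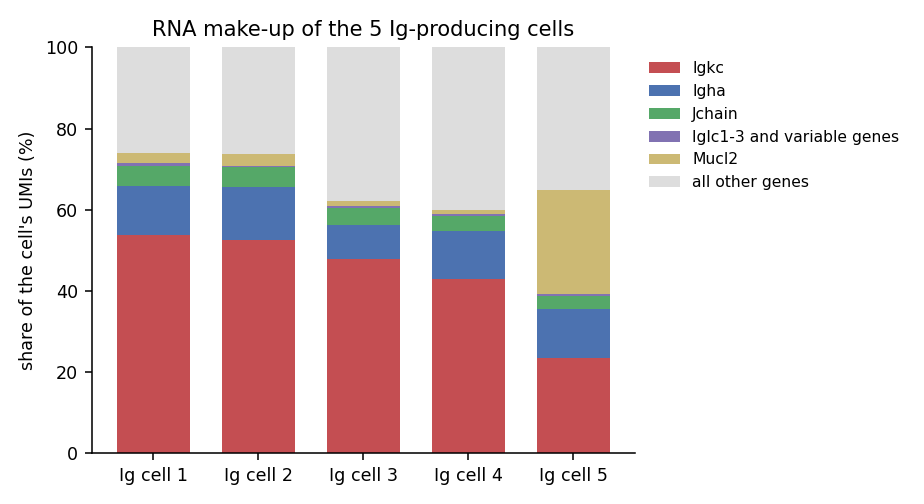
Share of each Ig-producing cell's UMIs (%, y axis) on the kappa constant gene, the alpha constant gene, the joining chain, the lambda constant and variable genes together, *Mucl2* and all other genes, for the 5 cells (x axis). Kappa and alpha RNA make up most of cells 1 to 4, and *Mucl2* takes 25.8% of cell 5 but 0.862% to 3.11% of the others.

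The 5 cells also differed in RNA of other cell types, as the plot of their make-up shows. *Mucl2* took 25.8% of the UMIs of cell 5, the cell in the serous acinar-like cluster. The complement genes *C1qa*, *C1qb* and *C1qc*, macrophage markers, had 39 UMIs together in cell 3, the cell in the myeloid-like cluster, and 0 in the others. The genes for the CD3 chains had 0 UMIs in all 5, including the 3 cells in the T-like cluster. Doublet calling by Scrublet marked 0 cells of the matrix and its calls were not used, and whether cells 3 and 5 hold RNA of more than 1 cell was not tested. Without cell 5 the log2 ratio was 17.45 for *Jchain* and 13.52 for *Mzb1*.

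Variable genes recurred between cells. Cells 1 and 3 both had *Ighv1-81* (5 and 3 UMIs) with *Igkv1-117* (19 and 37 UMIs). Cells 2 and 4 both had *Ighv5-17* (4 and 6 UMIs) with *Igkv6-17* (1 and 4 UMIs). Cell 4 also had 19 UMIs of the lambda variable gene *Iglv1*, and cells 1 and 2 had 4 and 1. Cell 5 had no variable-gene UMI. In these 3′ libraries the variable end of the transcript is far from the captured end, and only 7 of 380 variable-type genes had any UMI. The 5 cells held 106 of the 110 UMIs on them. Neither heavy gene had a UMI outside the 5 cells. Whether the shared genes mark a shared clone could not be read, because the joined sequence is not in a count table, and the cells could not be placed in the same or in different mice.

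The plasma cell list holds 24 genes, of which 21 had the 100 UMIs needed for a comparison. Of these, 15 were at least 2 times higher in the Ig-producing cells with at least 5 UMIs there, beside 2.28% of the 11235 genes compared. The same rule called *Jchain*, *Igha* and *Igkc* among the 5 members with enough UMIs, and *Mzb1* had too few. These calls are a description only, since *Igha* and *Igkc* were used to choose the cells. *Jchain* reached the limit of 100 UMIs only through the 5 cells, with 31 UMIs outside them. The median log2 ratio was 3.18 over the 19 list genes with UMIs on both sides and 1.26 over the 2953 such genes of all. With genes at 0 in the 5 cells placed at 3 counts, the medians were 3.69 and 3.43. The surface proteoglycan syndecan-1 (*Sdc1*, CD138) had 1, 6, 0, 9 and 1 UMIs in cells 1 to 5, a log2 ratio of 6.71 (5.92 to 7.41). The secretory stress factor *Xbp1* had 45 UMIs in all and a log2 ratio of 3.18 (2.73 to 3.61), beside 12650 UMIs in other cells. The disulfide isomerase *Txndc5* had 64 UMIs (4.93), the signal peptidase subunit *Sec11c* 50 (2.75) and the translocon-associated *Ssr4* 90 (3.04). These ratios depend on the total used. With the 10 most abundant genes out of it, each ratio was lower and the median over all genes was -0.61. In that setting, chosen after the data were seen, 11 list genes passed the fold, beside 0.579% of all genes. The B cell maturation antigen *Tnfrsf17* (BCMA) was below the limit of 100 UMIs. Of its 22 UMIs, 18 lay in the 5 cells, at 5, 1, 3, 9 and 0. *Cd38* and *Cd27* had 0 UMIs in the 5 cells.

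Genes of B cells before the plasma cell stage were scarce. *Cd79a*, a signalling chain of the B cell receptor, had 25 of its 45 UMIs in the 5 cells, at 10, 3, 3, 8 and 1. *Ms4a1* (CD20) had 3 UMIs in the whole matrix, none of them in the 5 cells. Over the 12 genes of the B cell list, 2 cells of 15702 had UMIs of 5 genes, 1 had 4 and 1 had 3. Of the recruitment and survival list, 13 genes had enough UMIs and 0 passed the fold with the minimum of 5 UMIs. The receptor for APRIL and BAFF *Tnfrsf13b* (TACI) and the integrin *Itgb7* had log2 ratios of 5.46 (3.17 to 7.03) and 5.06 (3.17 to 6.43) on 3 and 4 UMIs, and 10 genes had 0 UMIs there, as did 73.7% of all genes compared. The chemokine receptor *Ccr10*, which guides IgA plasma cells to mucosal glands, had 6 of its 10 UMIs in the Ig-producing cells, at 1, 3, 0, 2 and 0. Outside the lists, and chosen after their values were seen, *Prg2* had all 12 of its UMIs in 3 of the 5 cells and *Slpi*, a secretory protease inhibitor, had 156 of its 196 in 4 of them. Over the 23 clusters the genes most like *Jchain* were *Igkc* (Pearson r 0.98), *Igha* (0.97) and *Slpi* (0.94). Genes of the T-like cluster, which holds 3 of the 5 cells, followed, such as *Areg* and *Il7r*. The 5 cells, chosen by genes that include *Igkc* and *Igha*, were kept in these cluster levels. The likeness therefore follows from where the 5 cells fell and is a description only.

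Outside the 5 cells the members fell into different patterns. *Jchain* had 31 UMIs in 31 cells, 17 of them serous acinar-like, and 0 in the 1041 NK or ILC-like cells. *Igkc* had 370 UMIs outside, with 198 in serous acinar-like cells, and up to 20 in a cell. Its ratio to *Igha* was 3.87 in the Ig-producing cells and 3.09 in serous acinar-like cells. In the other epithelial classes it ran from 0.333 in basal or myoepithelial-like cells (1 and 3 UMIs) through 1.30 in Dcpp-rich and 1.82 in ductal epithelial-like cells to 5.50 in mucinous acinar-like cells (11 and 2 UMIs). In the epithelial classes *Igha* stood at 0.0108 per 10000 and *Igkc* at 0.0257, and *Igha* was found in 1.04% of cells.

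Among the named classes, NK or ILC-like cells stood apart for *Igha*. They had 76 of the 228 *Igha* UMIs outside the 5 cells, in 66 cells and with at most 3 per cell, but only 4 UMIs of *Igkc* and 0 of *Jchain* and *Mzb1*. The ratio of *Igkc* to *Igha* was thus 0.0526 there. The *Igha* level was 0.369 (0.291 to 0.462) against 0.0214 (0.0117 to 0.0359) in the other named non-epithelial classes, a log2 ratio of 4.11 (3.27 to 5.04). The unnamed cluster 19, in which 7 of the 10 NK or ILC markers passed, had *Igha* at 0.182 (0.0669 to 0.397) on 6 UMIs. The unnamed cluster 21 had it at 0.169 (0.0459 to 0.431) on 4 UMIs, and the myeloid-like cluster 17 at 0.102 (0.0332 to 0.239) on 5. With cells thinned to 500 UMIs, 2.21% of NK or ILC-like cells (1.41 to 3.30) had an *Igha* UMI, compared with 0.42% of vascular-like cells (0.0872 to 1.23), which should lack it. The unthinned shares were 6.34% and 0.42%, at median depths of 1824 and 2376.5 UMIs.

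*Ighm* was found mostly in immune classes with few light-chain UMIs. Myeloid-like cells had 352 of its 846 UMIs, at 1.30 per 10000 (1.17 to 1.45), and NK or ILC-like cells had 253, at 1.23 (1.08 to 1.39). T-like cells outside the Ig-producing cells stood at 0.42 (0.18 to 0.83) and the epithelial classes together at 0.00925 (0.00755 to 0.0112). An *Ighm* UMI was found in 26.6% of myeloid-like and 20.9% of NK or ILC-like cells, but in 0.99% of vascular-like cells. No cell had more than 4. *Igkc* had 43 UMIs in the myeloid-like cells and 4 in the NK or ILC-like cells. *Ighd*, the delta constant gene next to *Ighm*, had 36 of its 62 UMIs in NK or ILC-like cells. Compared with the other named non-epithelial classes, *Igha* and *Ighm* were the 2 members at least 2 times higher in NK or ILC-like cells, beside 13.4% of all genes compared. A count table does not show where in the gene the captured ends lay, and whether these UMIs come from rearranged genes was not tested.

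**Figure D2:**
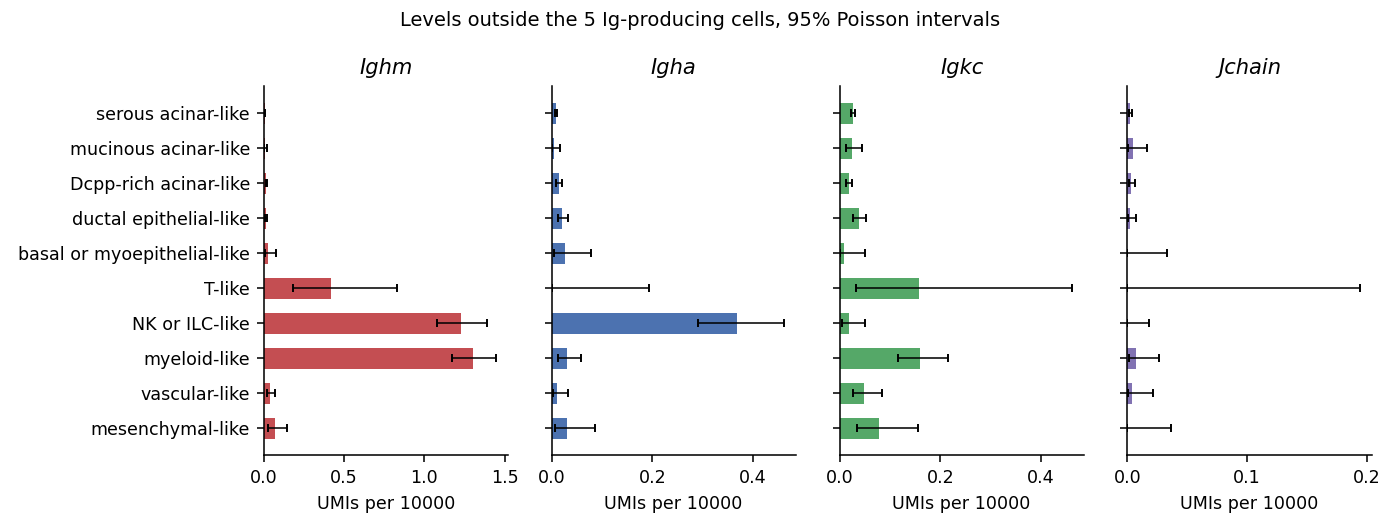
UMIs per 10000 (x axes, which differ in scale) of *Ighm*, *Igha*, *Igkc* and *Jchain* in 10 cell classes (y axis), without the 5 Ig-producing cells. Bars are levels and lines are exact Poisson 95% intervals. *Ighm* is high in NK or ILC-like and myeloid-like cells, at 1.23 and 1.30, and *Igha* in NK or ILC-like cells, at 0.369.

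*Pigr* had 0 UMIs in the Ig-producing cells, and most of it lay in acinar-like cells. Of its 12639 UMIs, 54.0% came from serous acinar-like cells (53.1 to 54.9), 26.8% from Dcpp-rich acinar-like cells, 11.3% from mucinous acinar-like cells and 2.63% from ductal epithelial-like cells. These classes gave 60.3%, 16.8%, 3.56% and 8.36% of all UMIs. The level was highest in mucinous acinar-like cells, at 3.21 per 10000 (3.04 to 3.38), followed by Dcpp-rich acinar-like cells at 1.62 (1.56 to 1.67), named for the demilune cell and parotid protein genes. The log2 ratio of these classes was 0.99 (0.90 to 1.08). Serous acinar-like cells stood at 0.904 (0.883 to 0.926), vascular-like cells at 0.955 (0.841 to 1.08) and mesenchymal-like cells at 0.543 (0.409 to 0.707). Ductal epithelial-like, basal or myoepithelial-like, NK or ILC-like, T-like and myeloid-like cells lay lower, from 0.317 down to 0.125. The intervals of the ratio included no difference between serous acinar-like and vascular-like cells, and between each pair of neighbours from ductal epithelial-like to myeloid-like cells.

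The non-epithelial classes with most *Pigr* were also those with most acinar RNA. The vascular-like cells, which should lack *Pigr*, held *Mucl2* at 2909 per 10000 and the 3 *Dcpp* genes at 1358, whereas NK or ILC-like cells held them at 1070 and 126. The part of such RNA in the *Pigr* level of these classes was not tested. Epithelial classes together stood at 1.07 and non-epithelial classes at 0.454, a log2 ratio of 1.23 (1.09 to 1.38), which became 2.19 without the vascular-like cells. With cells thinned to 500 UMIs, *Pigr* was found in 17.9% of mucinous acinar-like cells (14.1 to 22.3), 5.56% of Dcpp-rich, 4.61% of serous acinar-like (4.02 to 5.26), 2.82% of vascular-like (1.73 to 4.32), 1.79% of ductal epithelial-like (1.34 to 2.33) and 0.96% of NK or ILC-like cells (0.46 to 1.76). The unthinned shares were 71.1%, 33.9%, 47.0%, 21.7%, 7.29% and 4.13%, at median depths of 5738, 2277, 6107, 2376.5, 2698 and 1824 UMIs. At 1000 UMIs per cell the serous share, 8.46%, was close to the vascular-like share of 8.31%, so neither the level nor these shares set serous acinar-like cells above that background. The ductal share was above that of NK or ILC-like cells but below that of vascular-like cells, and was not read as expression.

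The order depended on how a level was scaled, because a few secretory genes fill acinar libraries. The 10 most abundant genes took 75.5% of all UMIs. Without them in the total, *Pigr* stood at 12.7 per 10000 in mucinous, 9.30 in Dcpp-rich and 8.26 in serous acinar-like cells, against 2.33 in vascular-like, 0.385 in ductal epithelial-like and 0.274 in NK or ILC-like cells. Mean UMIs per cell were 4.00, 1.48 and 0.99 in mucinous, serous and Dcpp-rich acinar-like cells, against 0.112 in ductal epithelial-like and 0.355 in vascular-like cells. With free RNA taken away (the mean per cell in vascular-like and mesenchymal-like cells), mucinous, Dcpp-rich and serous acinar-like cells stood at 2.98, 1.15 and 0.731. Ductal epithelial-like and basal or myoepithelial-like cells then stood at -0.489 and -0.202. Mucinous acinar-like cells were the highest class on these scales. The Dcpp-rich cluster 9 taken alone, with a median of 24478 UMIs per cell, reached 12.9 without the 10 most abundant genes and 4.46 UMIs per cell, above the mucinous acinar-like values of 12.7 and 4.00.

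**Figure D3:**
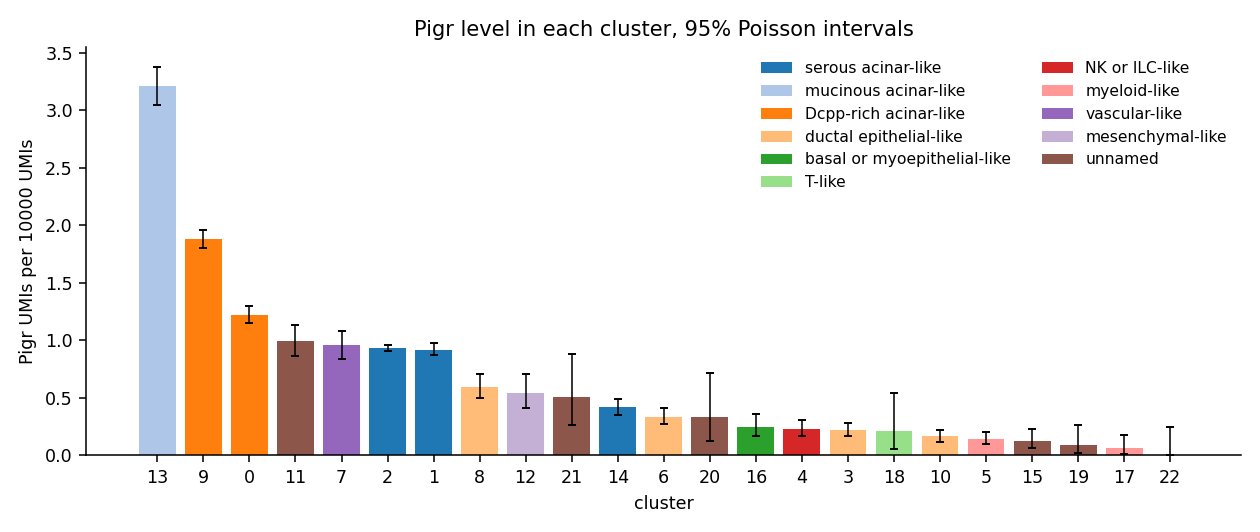
*Pigr* UMIs per 10000 (y axis) in each of the 23 clusters (x axis, in order of level), without the Ig-producing cells and coloured by class. Bars are levels and lines are exact Poisson 95% intervals. Cluster 13, the mucinous acinar-like class, is highest at 3.21, and the Dcpp-rich clusters 9 and 0 follow at 1.88 and 1.22.

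Single clusters differed within a class. The Dcpp-rich clusters 9 and 0 had *Pigr* at 1.88 (1.81 to 1.96) and 1.22 (1.15 to 1.30). The serous clusters 2 and 1 had nearly the same level, 0.932 (0.907 to 0.957) and 0.920 (0.868 to 0.974), at median depths of 29047 and 2268 UMIs per cell, and cluster 14 had 0.416 (0.353 to 0.487). Clusters 0, 1 and 14 had a median under 500 genes per cell. Cluster 2 alone, with 1932 cells, held 43.4% of all *Pigr* UMIs. Of the ductal clusters, cluster 8, led by *Esp4*, *Slc9a3* and *Slc13a2*, was highest at 0.597 (0.501 to 0.706). The kallikrein-rich cluster 6 followed at 0.336, the *Ascl3* and *Foxi1* cluster 3 at 0.220 and the kallikrein-rich cluster 10 at 0.164. *Mucl2* fell in the same order, at 1858, 1418, 808 and 410 on the same scale, but the *Dcpp* genes were lower in cluster 6 (113) than in cluster 3 (122). Mesenchymal-like cells, with *Mucl2* at 1942, had *Pigr* at 0.543, and the myeloid-like cluster 5, with *Mucl2* at 828, had 0.140. The part of acinar RNA in the ductal order was not tested. Within cluster 2 the level ran from 1.24 and 1.27 in the shallower cells to 0.906 and 0.801 in the deeper ones, in 4 groups of 483 cells ordered by depth. Cluster 1 went the other way, from 0.727 in the shallowest group to 0.967 in the deepest, and clusters 0 and 9 ran between 1.14 and 1.30 and between 1.65 and 2.01.

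The mucinous acinar-like cells were not alike. A cell of cluster 13 had a median of 2 *Pigr* UMIs, 16 at the 95th percentile and 48 at most, the highest count of any cell. Cluster 13 is named from *Muc19*, the gel-forming salivary mucin that marks mucinous acinar cells. Ordered by the *Muc19* share of a cell's UMIs, a split chosen after the data were seen, the 89 cells with the highest share (1.25% to 10.0%) had *Pigr* at 12.2 per 10000 (11.3 to 13.2), and 80 of them had a *Pigr* UMI. The next 89 cells stood at 4.25 (3.88 to 4.65), the next at 1.00 (0.822 to 1.20) and the 90 cells with the lowest share at 1.09 (0.942 to 1.27). The last 2 of these groups lay near the serous acinar-like level of 0.904, and *Mucl2* took 46.1% and 46.6% of their UMIs against 4.79% in the first. Median depth was 4452, 3805, 12068 and 11924 UMIs, so the groups with more *Pigr* were the shallower ones. The *Muc19* share and the *Pigr* level are divided by the same total. Per cell, *Pigr* had 7.26, 5.48, 1.24 and 2.03 UMIs in the same order, so the groups differed less on that scale. Ordered by depth instead, from the shallowest group to the deepest, cluster 13 had *Pigr* at 5.24, 7.96, 3.65 and 2.28 per 10000. The *Dcpp* genes took 22.9% and 58.4% of UMIs in the first and second groups. Outside cluster 13, 16 cells had at least 1% of their UMIs on *Muc19*, 11 of them in the Dcpp-rich clusters, and *Pigr* stood at 6.58 per 10000 in them.

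**Figure D4:**
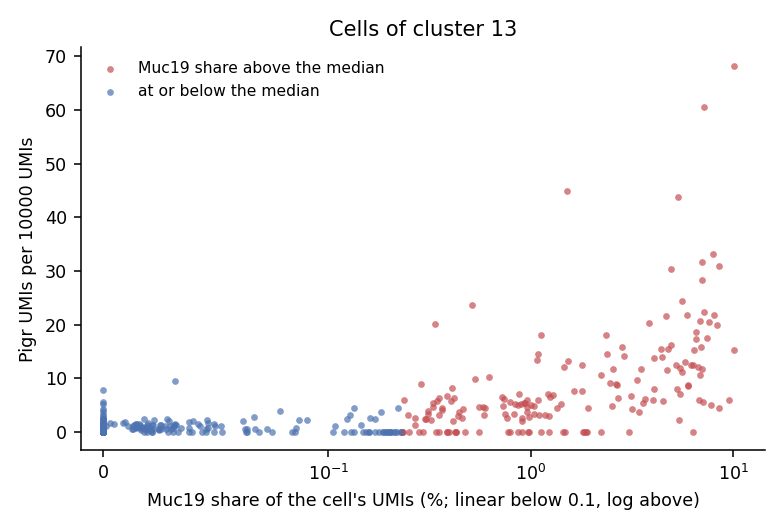
*Pigr* UMIs per 10000 UMIs (y axis) against the *Muc19* share of UMIs (x axis, %, linear below 0.1 and logarithmic above) in the 357 cells of cluster 13, coloured by whether the share is above the median of the cluster. The 178 cells above the median stand at 6.76 per 10000 together and the 179 others at 1.06.

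Most genes of the transport list differed less than *Pigr* between mucinous acinar-like and all other cells. The list covers vesicle traffic and secretion, so it is not a measure of transport across the cell alone. This class was taken because its *Pigr* level was highest, so the larger ratio of *Pigr* is partly a result of that choice. Spread over all classes was not compared. All 21 genes of the transport list had enough UMIs, and 3 of them were at least 2 times higher in mucinous acinar-like cells than in all other cells, beside 4.15% of all genes. They were *Rab4a*, a GTPase of fast endosomal recycling (log2 ratio 1.16), *Rab3d*, a GTPase of secretory granules (1.08), and *Retreg1*, a receptor for turnover of the endoplasmic reticulum (1.23), against 1.79 (1.71 to 1.87) for *Pigr*. The list's median was 0.32 and that of all genes -0.10. *Rab25* and *Rab17*, GTPases of apical recycling and transcytosis, had log2 ratios of 0.27 and 0.37 against all other cells. Ductal epithelial-like cells had them at 1.22 and 0.534 per 10000 and mucinous acinar-like cells at 0.378 and 0.153, but without the 10 most abundant genes the values were 1.48 and 0.647 against 1.49 and 0.604, and serous acinar-like cells were highest. *Vamp8*, an apical fusion protein, stood at 4.04 per 10000 in ductal epithelial-like and 0.946 in mucinous acinar-like cells, or at 4.89 and 3.74 without those genes. Where clustering drew a smaller mucinous acinar-like class, more of the list passed the fold, 7 genes in 229 cells and 11 in 118 cells, but 19.3% and 25.5% of all genes passed it there. *Pigr* stood at 6.06 and 7.30 per 10000 in these smaller classes.

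At 2-fold the list of *Pigr* inducers gave calls near the share of all genes in the class with most *Pigr*. That class includes 179 cells with *Pigr* at only 1.06 per 10000, so its ratios do not describe *Pigr*-rich cells alone. Of the 21 genes of the induction list, which holds interferon, interleukin, Toll-like receptor and NF-κB components, 0 were 2 times higher and 3 were 2 times lower in mucinous acinar-like cells, namely *Relb*, *Il4ra* and *Ifngr1*, beside 4.15% and 17.7% of all genes. The list's median log2 ratio was -0.64 and that of all genes -0.10. *Irf1*, the interferon regulatory factor that acts on *Pigr*, stood at 0.205 per 10000 in mucinous acinar-like, 1.00 in ductal epithelial-like and 2.42 in mesenchymal-like cells, or at 0.809 and 1.21 in the first 2 without the 10 most abundant genes. *Myd88*, the adaptor of Toll-like receptors, had the highest ratio of the list, 0.74 (0.35 to 1.12). Of 10 other immunoglobulin receptor genes, 6 had enough UMIs and none was 2 times higher in mucinous acinar-like cells. The neonatal Fc receptor *Fcgrt* was highest in mesenchymal-like cells, at 2.59 per 10000, and the Fcα/μ receptor *Fcamr* had 5 UMIs in the matrix.

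The promoter of *Pigr* is shown because bases before its start are where such factors act in the textbook account of its control. The 250 bases before the RefSeq start (GRCm38.p6, chr1:130826434-130826683, plus strand) hold 1 E-box CACGTG, in capitals, 71 bases before the start.
Pigr: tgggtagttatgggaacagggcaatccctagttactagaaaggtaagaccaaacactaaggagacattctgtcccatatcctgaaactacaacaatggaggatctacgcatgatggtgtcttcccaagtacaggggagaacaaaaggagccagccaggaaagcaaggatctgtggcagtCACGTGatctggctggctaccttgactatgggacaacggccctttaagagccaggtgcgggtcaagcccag
CACGTG, the palindromic motif of upstream stimulatory factors such as USF1, was found in 6.02% of 32851 such windows. GAAA repeated after 2 bases of any kind, as in interferon-stimulated response elements, and the octamer ATTTGCAT were searched on both strands and found in 2.98% and 1.60% of windows, but not in this one. None of the 3 strings was found in the window of *Jchain* (chr5:88527898-88528147, minus strand). Of the factors, *Usf1* stood at 0.0764 per 10000 in mucinous acinar-like and 0.181 in ductal epithelial-like cells, and the order turned without the 10 most abundant genes, at 0.302 and 0.219.

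The epithelial signal that draws IgA plasma cells was highest in the same class as *Pigr*. *Ccl28*, the chemokine of glandular epithelium that binds CCR10, stood at 0.494 per 10000 in mucinous acinar-like cells (0.431 to 0.564), 0.187 in Dcpp-rich acinar-like, 0.139 in serous acinar-like, 0.137 in ductal epithelial-like and 0.136 in vascular-like cells (0.0955 to 0.189), against 0.034 in NK or ILC-like cells. Without the 10 most abundant genes it stood at 1.95, 1.08, 1.27, 0.166 and 0.333 in the same classes, so that all 3 acinar-like classes were above the ductal and vascular-like cells. Over the 23 clusters it was the gene most like *Pigr* (Pearson r 0.83 of log2 levels, a description across clusters that share 1 matrix), except for *Frmpd1os* (0.86) and *C2cd4d* (0.84), among 11235 genes. Within cluster 13 the 178 cells above the median *Muc19* share had *Ccl28* at 0.966 (0.823 to 1.13) and the 179 others at 0.209 (0.159 to 0.270). Of 13 recruitment and survival genes with enough UMIs, *Ccl28* (log2 ratio 1.81) and *Tnfsf13* (APRIL, a plasma cell survival factor, 1.12) were the 2 past the fold in mucinous acinar-like cells, and 8 were 2 times lower, beside 4.15% and 17.7% of all genes. *Tnfsf13* was not particular to that class, at 0.166 per 10000 (0.131 to 0.209) against 0.188 (0.113 to 0.293) in mesenchymal-like cells. Without the 10 most abundant genes it stood at 0.657 in mucinous and 0.625 in serous acinar-like cells. The other survival factor *Tnfsf13b* (BAFF) was mainly myeloid, at 0.530 per 10000, and *Cxcl12* was mesenchymal and vascular, at 4.14 and 3.15. *Madcam1*, a homing ligand of gut vessels, had 0 UMIs in the matrix.

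**Figure D5:**
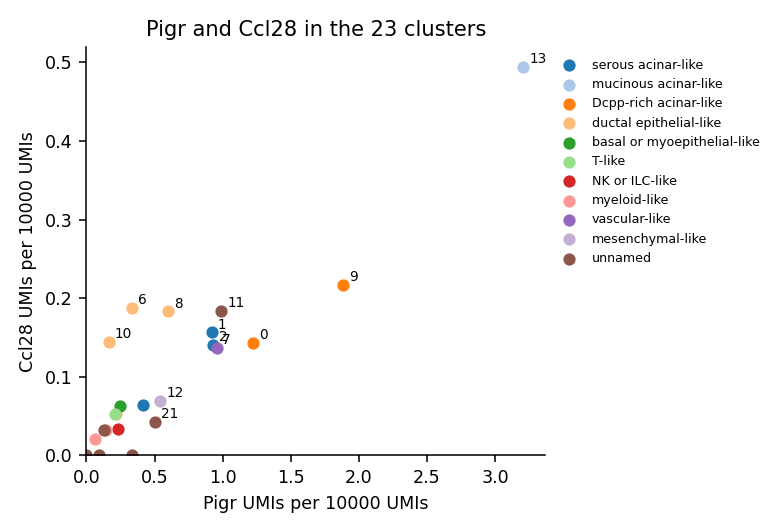
*Pigr* (x axis) and *Ccl28* (y axis) UMIs per 10000 in the 23 clusters, each point a cluster without the Ig-producing cells, numbered where either level is high and coloured by class. Cluster 13 is highest for both, at 3.21 and 0.494, and the ductal clusters 6, 8 and 10 have *Ccl28* at 0.187, 0.183 and 0.145 with less *Pigr*. On the scale without the 10 most abundant genes, which is not drawn, these were 0.240, 0.265 and 0.155, against 1.48 in cluster 9 and 1.49 in cluster 2.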

How the data were processed

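Single-cell RNA of pooled SMG and SLG suspensions was measured with 10x Genomics 3′ libraries. The authors deposited unnormalized UMI counts made with Cell Ranger 6.0.1 (build mm10 per the labels) as 1 matrix, 125100595 UMIs in 15707 cells. No cell was left out. Counts were log-normalized (scale factor 10000) and clustered with Seurat 5.3.0 in R 4.3.3. Of 2000 variable genes, 15 member or immunoglobulin genes were removed, and 20 principal components and resolution 0.5 were used. A name needed at least 3 markers, each in at least 25% of cells and above the rest, at least 1 of them among the 10 leading genes, and fewer than 3 markers of the other side (epithelial or not). The members and lists were chosen with earlier results of these data known. Named genes are the members, the lists, the 10 genes most like *Pigr* and *Jchain*, variable genes and leading genes.

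Levels carry exact Poisson and shares exact Clopper-Pearson 95% intervals, and ratios an exact conditional interval. Genes with at least 100 UMIs were compared at 2-fold with at least 5 UMIs in the higher group. Thinning drew 500 UMIs per cell, and no cell was shallower. The likeness of genes used log2(UMIs per 10000 + 0.1). The methods were tested on simulated data. Python 3.11.15, numpy 2.4.6, scipy 1.17.1, pandas 2.3.3, scanpy 1.11.5 and matplotlib 3.10.9 were used. Positions are from GENCODE M21, matched by Ensembl identifier, and promoters from RefSeq. Alternatives changed the cell rule, the clustering, the cells kept, the scaling, the fold and the limit on UMIs.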

Additional observations from a re-analysis of the deposited data

How the results depend on the processing

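All values rest on 1 matrix with no spread between mice, so no replicate could be left out, and the 5 Ig-producing cells are too few to describe a population. No paired analysis was possible because the cells carry no sample number. There were 5 Ig-producing cells also under a 5% limit, a cell filter (200 genes or more, mitochondrial share no higher than 20%) and without the 10% highest Scrublet scores, and 7 at a 0.5% limit. Of the alternative values 39 stayed within the interval or count range and 25 moved, none changing direction. The cause of each move was not tested, except where the total itself was changed. The *Jchain* log2 ratio was 15.49 with the 10 most abundant genes out of the total and 18.27 with free RNA taken away (the mean per cell in vascular-like and mesenchymal-like cells), and that of *Mzb1* 11.49 with those genes out.

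The *Pigr* log2 ratio of mucinous to the next epithelial class (0.99) was 1.14 at resolution 0.3, 1.90 at resolution 0.8, 2.19 with 10 and 1.14 with 30 principal components, 1.14 with the cell filter, 1.43 as mean UMIs per cell, 0.45 without the 10 most abundant genes and 1.37 with free RNA taken away. Chosen after the data were seen, leaving out clusters with a median under 500 genes gave 0.77. The ratio of epithelial to non-epithelial classes (1.23) was 2.13 at resolution 0.3, 2.29 at resolution 0.8, 2.04 with 10 and 1.86 with 30 components, 2.14 with the members kept for clustering, 2.20 with the cell filter, 2.46 without the highest Scrublet scores, 3.12 as mean UMIs per cell and 3.03 without the 10 most abundant genes. It was 2.19 without vascular-like cells, also chosen after the data were seen, and with free RNA taken away no positive level was left for the ratio. The 3 transport genes past the fold were 7 at resolution 0.8, 11 with 10 components and 0 at 3 times. The plasma cell list had 13 genes past the fold at 3 times, 15 under the other cell rules and filters, and 16 with the limit of 20 UMIs or with immunoglobulin genes out of the total. With the 10 most abundant genes out, a setting chosen after the data were seen, it had 11, beside 0.579% of all genes, and the median log2 ratio of all genes moved from 1.26 to -0.61. With cells thinned to 1000 UMIs, *Pigr* was found in 25.8% of mucinous acinar-like, 11.9% of Dcpp-rich, 8.46% of serous acinar-like and 8.31% of vascular-like cells.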
